A study of Homo sapiens with 18 samples.

Results

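The nascent polypeptide associated complex (NAC) was followed through the genes NACA, BTF3, BTF3L4 and NACAD, 4 of 16715 genes listed in either cell line. The genes were chosen by symbol, and NACAD was added because its values in hTERT RPE-1 cells were among the deepest falls, so its levels there are given as a description and carry no test. All 4 genes are listed in hTERT RPE-1 cells, and 3 are listed in MCF10A cells, where NACAD is not listed in the table used here. PolyA+ RNA was sequenced from MCF10A cells, an established breast epithelial line, and from hTERT RPE-1 cells, an established retinal pigment epithelial line immortalized with telomerase. Each line received a non-targeting siRNA (siNT, the negative control), the hsa-miR-28-5p mimic or the hsa-miR-708-5p mimic at 30 nM for 72 h, with 3 biological replicates per group and 18 libraries in all. Replicates carry the numbers 7, 8 and 9 in MCF10A cells and 1, 2 and 3 in hTERT RPE-1 cells. No genotype or allele distinguished the groups, and the mimics were transfected duplexes rather than the cells' own microRNAs.

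NAC is a heterodimer that sits at the exit of the ribosomal tunnel, where it is the first factor to meet most emerging chains. NACA encodes the alpha subunit and BTF3 the beta subunit, and NAC keeps the signal recognition particle (SRP) from ribosomes whose chains carry no signal sequence. BTF3L4 encodes a close paralog of BTF3, and NACAD encodes a larger protein with a NAC alpha domain whose function is less well known. NACA mRNA begins with a terminal oligopyrimidine tract, a feature it shares with ribosomal protein mRNAs.

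The mimics are shown first because they share the seed that was searched for in the transcripts. The seed, bases 2 to 8 from the 5′ end, is in capitals.
hsa-miR-28-5p: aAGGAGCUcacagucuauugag
hsa-miR-708-5p: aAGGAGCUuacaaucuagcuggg
The siblings were identical at the first 8 positions and at 16 of the first 22 positions, and position 9 was the first to differ. A match to bases 2 to 7 is the 6mer GCTCCT in the transcript, a match to bases 2 to 8 is the 7mer-m8 AGCTCCT, and the 6mer followed by A is the 7mer-A1 GCTCCTA. An 8mer holds both extensions, so each longer match contains a 6mer. The transcript strand alone was searched, in the GENCODE 44 canonical transcripts (hg38).

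NACAD lies on chromosome 7, from 45080437 to 45088969 on the minus strand, and its canonical transcript has 8 exons. This transcript holds 8 matches to the 6mer, all in the coding sequence of 4689 nt, and none in its 5′ UTR or its 3′ UTR of 72 nt. Exon 2, of 4005 nt, carries 7 of them and exon 3 carries 1. The windows with the 2 longer matches are printed because no other stretch of this transcript matches more than bases 2 to 7 (match in capitals, 30 bases, both in exon 2).
NACAD 7mer-A1, chr7:45085521-45085527, minus strand: cctcaccctcggGCTCCTAcattacggccg
NACAD 7mer-m8, chr7:45085321-45085327, minus strand: ctgcagacagcAGCTCCTcctggggccagg
Of 519 genes tested in hTERT RPE-1 cells with a coding sequence of 4000 to 5500 nt, 11 (2.12%) held at least 8 matches, and the median was 2. At least 1 6mer in the coding sequence occurred in 81.7% of these genes, and 21.0% had at least 2 matches of 7 bases. The coding sequence of NACAD was 63.5% G and C against a median of 50.3%, and 10.6% of the genes were as rich or richer.

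NACA lies on chromosome 12, from 56712427 to 56725299 on the minus strand. Its canonical transcript encodes the long muscle-type form of 2078 codons, and all of its 6 matches fall in exon 3, of 5589 nt. The best of these is an 8mer, printed because it is the longest match among the 4 genes.
NACA 8mer, chr12:56719474-56719481, minus strand: actgtctctttAGCTCCTAaaaaccaccca
The ubiquitous NACA protein has 215 codons, and its 5 annotated transcripts skip that exon. Of these 5 transcripts, 2 have a single 7mer-m8 in the 5′ UTR at chr12:56725494-56725500, upstream of the gene end used for the deposited values, and 3 have no match. The values were summed per gene, so these forms were not separated.

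BTF3 (chromosome 5, 73498425 to 73505623, plus strand) and BTF3L4 (chromosome 1, 52056185 to 52090716, plus strand) had no match in any part of their canonical transcripts, including the 3958 nt of the BTF3L4 3′ UTR. For comparison, 12764 of the 14527 genes tested in hTERT RPE-1 cells were matched by name to a canonical transcript. Of these, 35.8% had a 6mer in the 3′ UTR, and 46.0% had one in the coding sequence. These counts describe letters in the transcripts and were not tested against the changes in level.

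**Figure D1:**
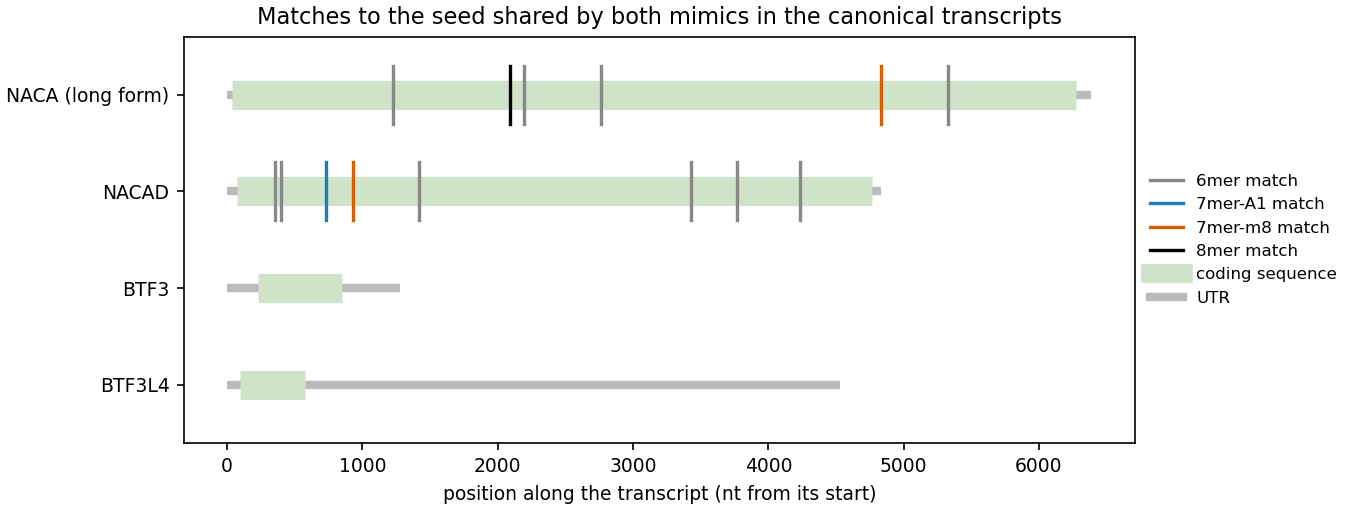
Position along the canonical transcript in nt (horizontal axis) of each match to the seed of both mimics, for the 4 genes, with the coding sequence as the wide bar and the UTRs as the thin bar. NACAD carries 8 matches and the long form of NACA 6, all in coding sequence, whereas BTF3 and BTF3L4 carry none.

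The 18 libraries held an estimated 19.4 M to 40.3 M assigned reads each (M, reads in units of 10 to the sixth power), and 3 reads corresponded to a scaled value of 2.36 to 4.404. MCF10A cells expressed all 7 of their epithelial markers. In hTERT RPE-1 cells the visual cycle genes were near background, with RPE65 not listed and RLBP1 at most 15.3, whereas MITF reached 1070 to 2031. One control library stood apart, since siNT replicate 3 of hTERT RPE-1 cells had PMEL, a melanosome gene, at 544 and TYRP1, a melanin synthesis gene, at 561, against at most 13.8 and 12.2 in the other 8 libraries. The hsa-miR-28-5p replicate 1 library of the same line had 15.1% of its values in ribosomal RNA genes, while the other 8 libraries of that line ranged from 4.23% to 7.20%. Summed over 9 retinal pigment epithelial markers, of which 8 were listed, levels moved with the mimics, from 38051 to 41084 in siNT libraries to 29480 to 31857 after hsa-miR-28-5p and 19687 to 21478 after hsa-miR-708-5p. Most of that sum was CDH2 (median 21913 over the hTERT RPE-1 libraries) and KRT18 (5784), with MITF next at 1310. KRT18 was also 4241 to 5255 in MCF10A cells, so the sum says little about markers particular to this cell type. The 7 epithelial markers moved likewise in MCF10A cells, from 160888 to 175170 in siNT libraries to 104336 to 114772 and 80351 to 101559. Of 10 genes taken as markers of other cell types, 3 were listed in MCF10A cells and 7 in hTERT RPE-1 cells. A listed gene can still be near background, and PTPRC, VWF, ACTA1 and SYP were at most 15.3 in hTERT RPE-1 cells. The sum of the 7 genes there, mostly the collagen gene COL1A1, ranged from 23257 to 67814 in siNT, 6116 to 17861 after hsa-miR-28-5p and 1821 to 5609 after hsa-miR-708-5p. Whether COL1A1 came from the line itself was not tested. The part of these markers in the results below was not tested. In bulk RNA of this kind, fewer cells of a type and less RNA per cell cannot be told apart. RPS28, the ribosomal protein gene that the study followed as the target of both mimics, had log2 fold changes of -2.79 and -2.65 in MCF10A cells for hsa-miR-28-5p and its sibling, and of -4.47 and -4.397 in hTERT RPE-1 cells (limma adjusted p at most 1.48e-05).

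In control cells NACA and BTF3 were abundant and BTF3L4 was scarce once transcript length was taken into account. In MCF10A siNT libraries, the level per kb of transcript was 23552 ± 1489 (SD, n = 3) for NACA, 14113 ± 915 for BTF3 and 404 ± 36.2 for BTF3L4. In hTERT RPE-1 siNT libraries, the same measure was 11197 ± 743 for NACA, 7140 ± 577 for BTF3, 456 ± 13.6 for BTF3L4 and 101 ± 17.3 for NACAD. None of these ranges overlapped within a line, and NACAD was the rarest member. The NACA level uses the 1074 nt transcript, the median of 5, and with the longest of 2690 nt NACA falls to 9403 and 4471 per kb, under BTF3. The lines were scaled separately, so levels are not compared between them.

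NACAD was almost lost from hTERT RPE-1 cells with both mimics. Its scaled value was 449, 584 and 430 in the siNT libraries (mean 488 ± 83.8, SD, n = 3). With hsa-miR-28-5p it was 16.4, 26.2 and 23.3 (mean 22.0 ± 5.07), or 4.51% of the control mean. With hsa-miR-708-5p it was 1.57, 1.90 and 2.55 (mean 2.01 ± 0.50). All mimic libraries lay below all siNT libraries, as for 27.5% of genes tested after hsa-miR-28-5p and 34.9% after hsa-miR-708-5p. Every hsa-miR-708-5p library was also below every hsa-miR-28-5p library. The gene was chosen by these values, so their separation is a description. These values correspond to 1389 reads over the siNT libraries, 63 after hsa-miR-28-5p and 7 after hsa-miR-708-5p. The ratio of siNT to hsa-miR-28-5p was 22.2 (95% exact interval 17.2 to 29.02), and that of siNT to hsa-miR-708-5p was 245.9 (119 to 613). Between the mimics the ratio was 11.1 (5.08 to 28.7). These intervals cover counting error only, not the spread between cultures, and are no test of the mimics.

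On the log2(value + 1) scale the difference from siNT was -4.42 for hsa-miR-28-5p and -7.34 for hsa-miR-708-5p. The second value depends on the added 1, because the hsa-miR-708-5p libraries held 2 or 3 reads each. It was -5.36 when 10 was added instead. NACAD was chosen for the depth of this fall, so its place in the order of fold changes restates the choice and is given only to name its neighbours. The order holds 5191 hTERT RPE-1 genes past the threshold with both mimics and with a mean of at least 100. NACAD reached that mean only through its siNT libraries, and its entry in this order is no test of it. Among these genes the mean log2 fold change of NACAD, -5.88, was the 2nd lowest. CEMIP, which encodes a protein that degrades hyaluronan, lay below it at -6.49. Above it were LRRC32, the surface anchor of latent TGF-beta, at -5.41 and IMPDH1, an enzyme of guanine nucleotide synthesis, at -4.45. Without siNT replicate 3, the library with PMEL and TYRP1, the NACAD differences were -4.51 and -7.43, as large as with it.

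**Figure D2:**
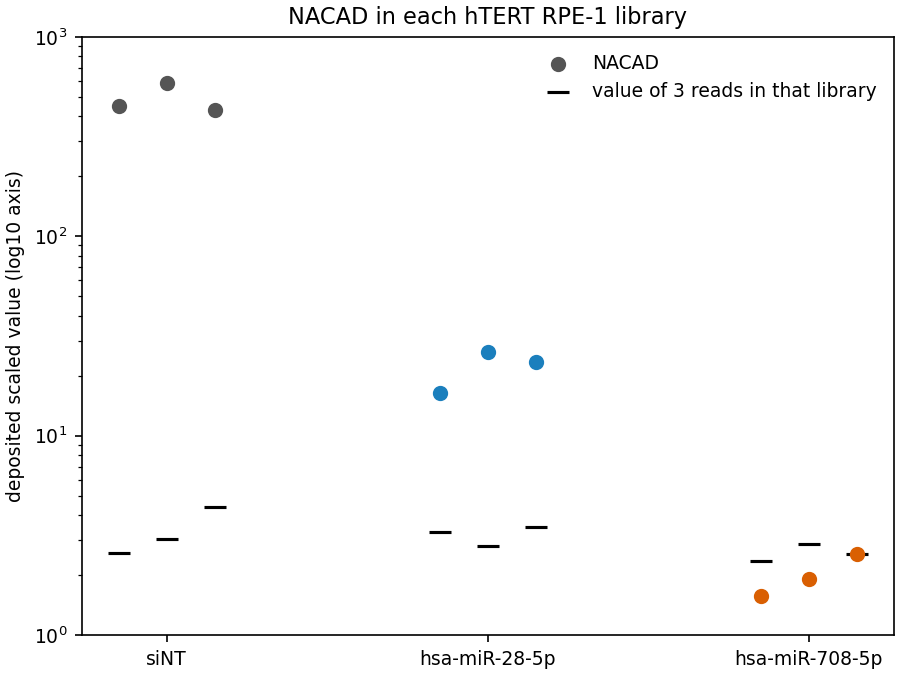
Scaled value of NACAD (log10 axis) in each of the 9 hTERT RPE-1 libraries, grouped by treatment, with dashes at the value that 3 reads had in that library. The siNT points lie between 430 and 584, the hsa-miR-28-5p points between 16.4 and 26.2, and the hsa-miR-708-5p points at or under their dashes.

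The genes whose levels over the 9 hTERT RPE-1 libraries ran most closely with NACAD were KRT8, a keratin of simple epithelia (Pearson r 0.998), AOPEP, an aminopeptidase (0.997), and HYOU1, a chaperone of the endoplasmic reticulum (0.997). These r values compare 11439 genes over the same 9 libraries which share 3 treatments, and serve as a description. The comparison took genes with a mean of at least 100, which NACAD reached only through its siNT libraries. The same NACAD values had chosen the gene.

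BTF3, the beta subunit of NAC, fell with both mimics in both lines. In MCF10A cells BTF3 was 16704, 18955 and 18367 in siNT libraries, 10954, 12540 and 12369 after hsa-miR-28-5p, and 12483, 10361 and 10194 after hsa-miR-708-5p. Each mimic library lay below each siNT library, which held for 22.1% of all genes tested after hsa-miR-28-5p and 23.9% after hsa-miR-708-5p. BTF3 retained 66.4% of its control mean after hsa-miR-28-5p (log2 fold change -0.59, SE 0.11, limma adjusted p = 0.0049) and 61.2% after hsa-miR-708-5p (-0.71, SE 0.11, limma adjusted p = 0.000915).

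The hTERT RPE-1 values of BTF3 were 8977, 8451 and 9904 in siNT libraries, 7108, 5384 and 5801 after hsa-miR-28-5p, and 5939, 4599 and 4996 after hsa-miR-708-5p. The siNT libraries again lay above all mimic libraries, as for 27.5% and 34.9% of genes tested. BTF3 retained 66.9% of its control mean after hsa-miR-28-5p (log2 fold change -0.59, SE 0.13, limma adjusted p = 0.00358) and 56.8% after hsa-miR-708-5p (-0.82, SE 0.13, limma adjusted p = 0.000249). All 4 BTF3 calls held under every alternative run, with limma adjusted p from 5.26e-05 to 0.0225. The MCF10A value after hsa-miR-28-5p was -0.39 under quantile normalization, and the hTERT RPE-1 value after hsa-miR-708-5p was -0.50 with libraries rescaled to equal totals.

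NACA, the alpha subunit, was also called lower with both mimics in both lines, and its calls were less firm. In MCF10A cells NACA was 23452, 26299 and 26135 in siNT libraries, 14866, 19991 and 20472 after hsa-miR-28-5p, and 18235, 17313 and 19572 after hsa-miR-708-5p. No mimic library reached the siNT range, a separation that held for 22.1% of genes tested after hsa-miR-28-5p and 23.9% after hsa-miR-708-5p. The mean was 72.9% of control after hsa-miR-28-5p (log2 fold change -0.47, SE 0.14, limma adjusted p = 0.0309) and 72.6% after hsa-miR-708-5p (-0.46, SE 0.14, limma adjusted p = 0.0237). Both calls were lost without siNT replicate 8 (limma adjusted p 0.091 and 0.0725) or siNT replicate 9 (0.0945 and 0.0759). The former was also lost without hsa-miR-28-5p replicate 7 or 8 (0.0679 and 0.0511), and the latter without hsa-miR-708-5p replicate 8 (0.0844).

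The hTERT RPE-1 values of NACA were 12062, 11211 and 12805 in siNT libraries, 11299, 8382 and 8748 after hsa-miR-28-5p, and 9371, 7426 and 7773 after hsa-miR-708-5p. The hsa-miR-28-5p replicate 1 library, the one with 15.1% of values in ribosomal RNA genes, overlapped the controls. All hsa-miR-708-5p libraries lay below the controls, as for 34.9% of genes tested. The log2 fold change was -0.35 after hsa-miR-28-5p (SE 0.13, limma adjusted p = 0.0451) and -0.56 after hsa-miR-708-5p (SE 0.13, limma adjusted p = 0.00346). Without that library the hsa-miR-28-5p value was -0.49 (limma adjusted p = 0.00553), and without siNT replicate 3 it was -0.31 (limma adjusted p = 0.121). That call was lost as well without siNT replicate 1 or 2 (limma adjusted p 0.103 and 0.0594), hsa-miR-28-5p replicate 2 or 3 (0.132 and 0.134) or hsa-miR-708-5p replicate 3 (0.0602). All 4 NACA calls were lost when libraries were rescaled to equal totals (limma adjusted p from 0.0759 to 0.113) and under quantile normalization (0.0982 to 0.438). The log2 fold changes were then smaller with the same sign, from -0.36 to -0.24 under equal totals and from -0.27 to -0.13 under quantile normalization.

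BTF3L4, the BTF3 paralog, was not called lower in any comparison. In MCF10A cells it was 1793, 1689 and 2011 in siNT libraries, 1673, 1926 and 1747 after hsa-miR-28-5p, and 2073, 1949 and 1941 after hsa-miR-708-5p. The groups overlapped, and neither difference passed the test. The log2 fold change was -0.04 after hsa-miR-28-5p (95% interval -0.25 to 0.17, limma adjusted p = 0.807) and 0.12 after hsa-miR-708-5p (-0.09 to 0.33, limma adjusted p = 0.365), and changes within those intervals could not be told from 0.

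In hTERT RPE-1 cells BTF3L4 rose with both mimics. It was 2049, 2016 and 2135 in siNT libraries, 2661, 2478 and 2321 after hsa-miR-28-5p, and 2631, 2582 and 2475 after hsa-miR-708-5p. The mimic libraries all lay above the siNT libraries, as they did for 26.9% and 34.3% of genes tested. The mean rose to 120% of control after hsa-miR-28-5p (log2 fold change 0.27, SE 0.08, limma adjusted p = 0.0172) and to 124% after hsa-miR-708-5p (0.31, SE 0.08, limma adjusted p = 0.0053). The hsa-miR-28-5p call was lost without siNT replicate 1, siNT replicate 2 or hsa-miR-28-5p replicate 1 (limma adjusted p 0.0548, 0.0602 and 0.0629). The hsa-miR-708-5p value was 0.63 with libraries rescaled to equal totals (limma adjusted p = 6.85e-05).

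**Figure D3:**
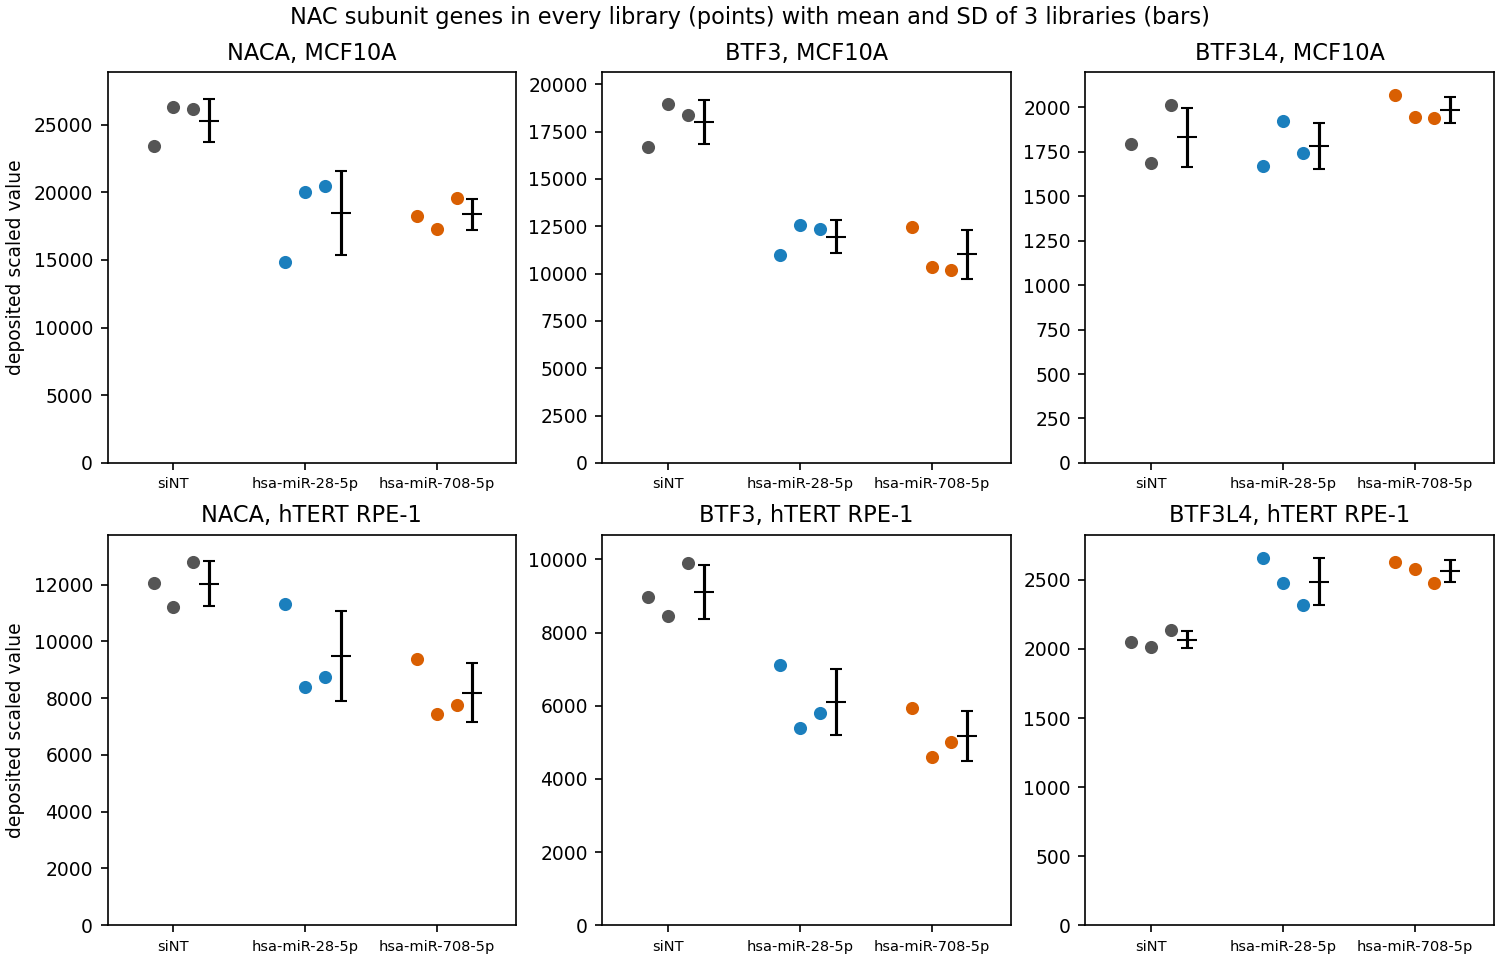
Scaled values (vertical axis, from 0) of NACA, BTF3 and BTF3L4 in MCF10A cells (top) and hTERT RPE-1 cells (bottom), 1 point per library with the mean and SD of 3 libraries. BTF3 is lower in every mimic library than in every siNT library of its line, NACA overlaps only in hTERT RPE-1 cells after hsa-miR-28-5p, and BTF3L4 is higher with both mimics in hTERT RPE-1 cells.

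Counted together, 2 of 3 members were called in MCF10A cells after hsa-miR-28-5p, where 22.7% of all genes tested were called, and 2 of 3 after hsa-miR-708-5p, where 32.8% were called. For hTERT RPE-1 cells 3 of 3 were called with each mimic, leaving NACAD out, against 46.8% and 62.1% of all genes. NACA and BTF3 were lower with both mimics in both lines, as were 756 of 13339 genes tested in both, or 5.67%. With shares this large in hTERT RPE-1 cells, calls of single members there are common among all genes. Both mimics were compared with the same 3 siNT libraries, so their results are not independent.

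The siblings were compared directly at the same dose and time. None of the 3 tested members passed the test between the mimics in either line, where 1.55% of genes were called in MCF10A cells and 21.2% in hTERT RPE-1 cells, and 0 had an unadjusted limma p under 0.05. In MCF10A cells the difference of hsa-miR-708-5p from hsa-miR-28-5p was 0.01 for NACA (95% interval -0.29 to 0.31), -0.12 for BTF3 (-0.37 to 0.13) and 0.16 for BTF3L4 (-0.05 to 0.37), on the log2 scale. Among hTERT RPE-1 libraries it was -0.21 for NACA (-0.49 to 0.08), -0.23 for BTF3 (-0.51 to 0.05) and 0.05 for BTF3L4 (-0.13 to 0.22). These intervals leave room for differences between the siblings of up to 0.51 on the log2 scale. With libraries rescaled to equal totals, the BTF3L4 difference in hTERT RPE-1 cells was 0.28 and was called (limma adjusted p = 0.0275). The NACAD difference between the siblings, -2.92 on the log2(value + 1) scale, was given no test.

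Responses were also compared between the lines, as the log2 fold change in hTERT RPE-1 cells minus that in MCF10A cells. No tested member passed the test, where 23.4% of genes did after hsa-miR-28-5p and 39.8% after hsa-miR-708-5p. The nearest was BTF3L4 after hsa-miR-28-5p, with a difference of 0.30 (95% interval 0.04 to 0.56). Its adjusted p was 0.0815, from a test that combined the standard errors of both limma fits. BTF3L4 was the 1 member with an unadjusted p under the threshold in that test. For BTF3 the difference was 0.01 (-0.35 to 0.36) after hsa-miR-28-5p and -0.11 after hsa-miR-708-5p. For NACA it was 0.11 and -0.10. For BTF3L4 after hsa-miR-708-5p the difference was 0.19 (-0.07 to 0.45). With libraries rescaled to equal totals it was 0.365 and was called (both limma fits combined, adjusted p = 0.0282). Whether the BTF3L4 response differed between the lines thus depended on the scaling.

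**Figure D4:**
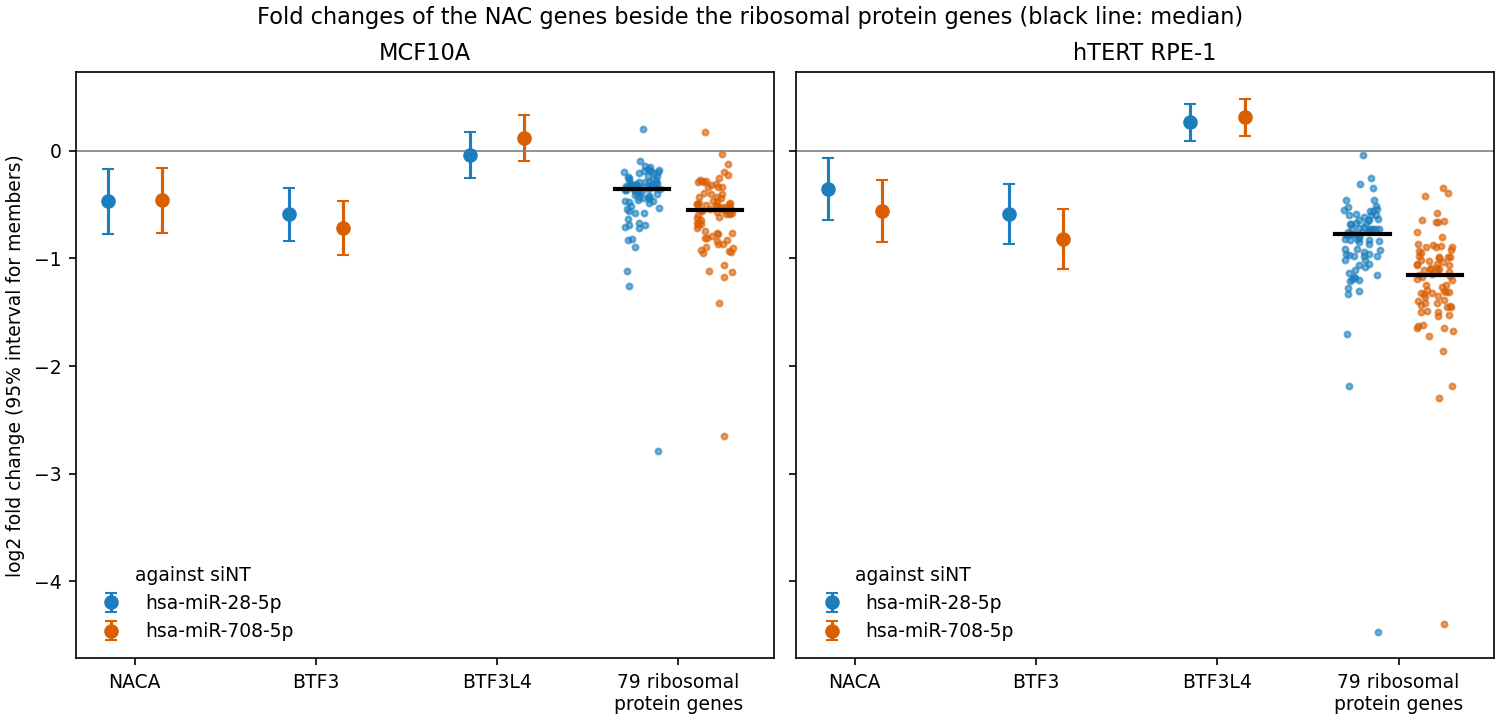
Log2 fold change against siNT (vertical axis) of NACA, BTF3 and BTF3L4 with 95% intervals, and of 79 ribosomal protein genes as small points with a black line at their median, in each line and with each mimic. The ribosomal protein median is -0.35 and -0.55 in MCF10A cells, where BTF3 lies below it at -0.59 and -0.71, and -0.77 and -1.16 in hTERT RPE-1 cells, where NACA and BTF3 both lie above it.

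Ribosomal protein genes provided a reference for NACA and BTF3, since all serve the translating ribosome. Their median log2 fold change in MCF10A cells was -0.35 after hsa-miR-28-5p (28 of 79 lower, where 12.0% of all genes were lower) and -0.55 after hsa-miR-708-5p (62 lower, against 17.3%). In hTERT RPE-1 cells it was -0.77 (76 lower, against 23.5%) and -1.16 (79 lower, against 31.2%), and the median of all genes tested lay at 0.01 or nearer to 0 in each comparison. In hTERT RPE-1 cells, 75 and 76 of the 79 genes had a lower fold change than NACA after hsa-miR-28-5p and its sibling, in that order. The MCF10A counts were 21 and 57. For BTF3 they were 12 and 24 in MCF10A cells and 67 and 69 in hTERT RPE-1 cells.

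Ratios within a library do not depend on how the libraries were scaled. NACA divided by the median ribosomal protein gene was 0.99 to 1.08 in hTERT RPE-1 siNT libraries, 1.28 to 1.47 after hsa-miR-28-5p and 1.46 to 1.53 after hsa-miR-708-5p. The mimic means were 1.32 and 1.47 times the siNT mean, without overlap. In MCF10A cells this ratio was 1.01 to 1.06 in siNT libraries, 0.98 to 1.07 after hsa-miR-28-5p, which overlapped, and 1.10 to 1.21 after hsa-miR-708-5p, which did not. The exact two-sided permutation test gave p = 0.1 for the 3 non-overlapping comparisons, the smallest that 3 libraries against 3 allow, and p = 0.4 for the other. Of 16 such ratios tested, the Benjamini-Hochberg adjusted value was 0.133 at the lowest, so none could pass 0.05.

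The ratio of NACA to BTF3 RNA values lay above the siNT range in every mimic library in 3 of 4 comparisons. All NACA forms were summed in it, and NAC protein was not measured. It was 1.29 to 1.34 in hTERT RPE-1 siNT libraries, 1.51 to 1.59 after hsa-miR-28-5p and 1.56 to 1.61 after hsa-miR-708-5p, or 1.17 and 1.198 times the control. In MCF10A cells it was 1.39 to 1.42 in siNT libraries, 1.36 to 1.66 after hsa-miR-28-5p, which overlapped, and 1.46 to 1.92 after hsa-miR-708-5p (1.19 times the control). The exact permutation test gave p = 0.1 for the 3 comparisons without overlap and p = 0.4 for hsa-miR-28-5p in MCF10A cells.

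The ratio of BTF3L4 to BTF3 and the ratio of BTF3 to the ribosomal protein genes were added after the values had been seen. BTF3L4 divided by BTF3 was 0.089 to 0.109 in MCF10A siNT libraries, 0.141 to 0.154 after hsa-miR-28-5p and 0.166 to 0.190 after hsa-miR-708-5p. For hTERT RPE-1 cells it was 0.216 to 0.239 in siNT libraries, 0.374 to 0.460 after hsa-miR-28-5p and 0.443 to 0.561 after hsa-miR-708-5p. No mimic library overlapped the siNT libraries, and the mimic means were 1.47 and 1.78 times the siNT mean in MCF10A cells and 1.80 and 2.19 times in hTERT RPE-1 cells (exact permutation p = 0.1 each). The ratio was chosen from the same values, so its separation is a description. The share of gene pairs that separate in this way was not counted. Of the summed values of both beta-type genes, BTF3L4 made up 9.25% ± 0.93 (SD, n = 3) in MCF10A siNT libraries, 13.0% ± 0.53 after hsa-miR-28-5p and 15.4% ± 0.97 after hsa-miR-708-5p. Among hTERT RPE-1 libraries the share was 18.5% ± 0.76, 29.1% ± 2.19 and 33.3% ± 2.63. These shares are of values not divided by length, and the longer BTF3L4 transcript gives more reads per molecule. BTF3 divided by the ribosomal protein genes was 0.89 and 0.92 times the control in MCF10A cells and 1.12 and 1.23 times in hTERT RPE-1 cells, with overlap for hsa-miR-708-5p in MCF10A cells and hsa-miR-28-5p in hTERT RPE-1 cells.

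**Figure D5:**
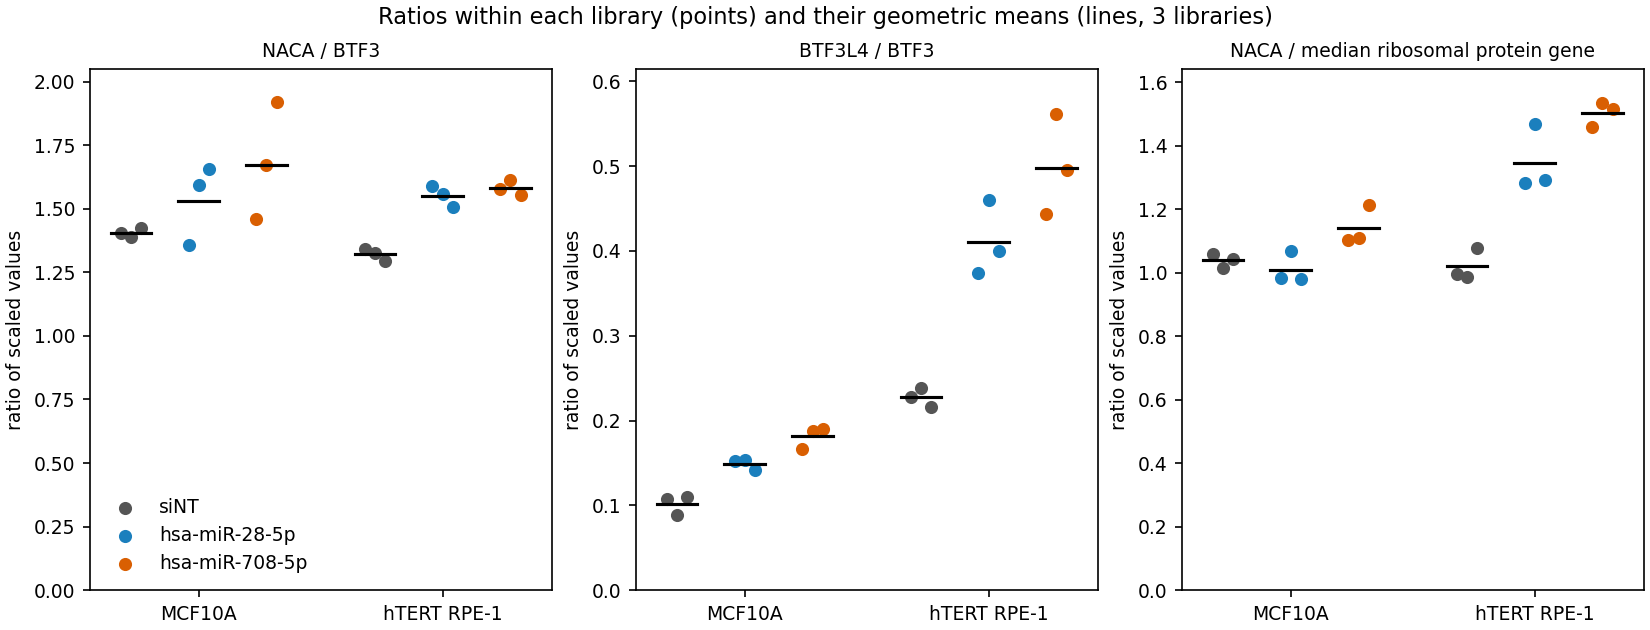
Ratios of scaled values within each library (vertical axes, from 0) for NACA to BTF3, BTF3L4 to BTF3 and NACA to the median ribosomal protein gene, by line and treatment, with a line at the geometric mean of 3 libraries. BTF3L4 to BTF3 is higher in every mimic library than in every siNT library of the same line.

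NACA2, a retrogene copy of NACA (chromosome 17, 61590423 to 61591219, minus strand), was low and was not called in any comparison. Its values were 47.0 to 95.7 in MCF10A cells and 9.33 to 24.3 in hTERT RPE-1 cells. Its sequence is close to that of NACA, so some of these reads may have been divided between the genes by the authors' estimation step, and its values are uncertain.

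Over the 9 libraries of a line, NACA ran most closely with RPL21, RPL5 and RPS24 in hTERT RPE-1 cells (Pearson r 0.986 to 0.988), all ribosomal protein genes, and BTF3 came 11th of 11439 genes (0.979). In MCF10A cells the closest were ITPR1, a calcium release channel, with r 0.990, and the ribosomal protein genes RPL34 and RPL29 (0.988 and 0.985). BTF3 ran most closely with SCCPDH, EIF3E and RPS15A in hTERT RPE-1 cells (0.994 to 0.997). In MCF10A cells its closest genes were SMYD2, C1QBP and C1orf43 (0.992 to 0.998). BTF3L4 ran most closely with KBTBD6, FAM98B and LINC00920 in hTERT RPE-1 cells (0.984 to 0.993) and with IQCB1, HPF1 and BCDIN3D in MCF10A cells (0.881 to 0.909). It had r of -0.75 with BTF3 in hTERT RPE-1 cells and -0.16 in MCF10A cells. The 9 libraries share 3 treatments, so the values are descriptions.

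Other factors that meet the nascent chain were taken from a list of 43 genes, all tested in both lines. In MCF10A cells 13 were lower and none was higher after hsa-miR-28-5p, and 19 were lower and 1 higher after hsa-miR-708-5p. The hTERT RPE-1 line had 15 lower and 6 higher members after hsa-miR-28-5p, and 18 lower and 10 higher after hsa-miR-708-5p. Without siNT replicate 8 the lower counts in MCF10A cells were 8 for each mimic, and for hsa-miR-708-5p they were 9 without its replicate 8 and 7 without its replicate 9. The higher counts in hTERT RPE-1 cells were 3 without siNT replicate 2 or hsa-miR-28-5p replicate 2 for that mimic, and 6 without siNT replicate 2 or hsa-miR-708-5p replicate 1 or 3 for its sibling. The background shares of lower genes were 12.0%, 17.3%, 23.5% and 31.2%, and those of higher genes 10.7%, 15.5%, 23.3% and 30.9%, in that order. The list medians were -0.25, -0.27, -0.12 and -0.15. With libraries rescaled to equal totals, 7 were lower and 19 higher after hsa-miR-708-5p in the hTERT RPE-1 line, so the balance of directions there turned.

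SRP and its receptor, which deliver signal-bearing chains to the membrane and compete with NAC, held 4 lower members of 8 with each mimic in MCF10A cells and 5 and 6 in hTERT RPE-1 cells, beside the same shares of lower genes. Both receptor subunits fell with each mimic. SRPRB, the membrane-spanning subunit, fell from 2613 to 1231 and 1285 on average in MCF10A cells and from 1617 to 673 and 777 in hTERT RPE-1 cells. SRPRA, the subunit that docks SRP, fell from 3663 to 2054 and 1834 and from 5165 to 2690 and 2082. SRP68 and SRP72, which form a dimer within the particle, were lower with both mimics in both lines, with log2 fold changes from -0.55 to -0.25. SRP54, the subunit that binds the signal sequence, was higher after hsa-miR-708-5p in MCF10A cells (log2 fold change 0.47, limma adjusted p = 0.0056), and was not called in the other 3 comparisons.

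SEC61B, a small subunit of the translocon that receives the chain, was also lower with both mimics in both lines, by log2 fold changes from -0.74 to -0.37. TCP1, a subunit of the cytosolic chaperonin TRiC, was lower in all 4 comparisons as well, from -0.48 to -0.41. Of the 8 TRiC subunits, 4 and 6 were lower in MCF10A cells, against 12.0% and 17.3% of all genes. The hTERT RPE-1 counts of 1 and 3, with 1 higher after hsa-miR-708-5p, were near the all-gene shares of 23.5% and 31.2%. Methionine aminopeptidases remove the first residue of the chain, and both genes were lower with each mimic in MCF10A cells, beside the same 12.0% and 17.3%. In hTERT RPE-1 cells 1 of 2 was lower, after hsa-miR-708-5p, where 31.2% of all genes were lower.

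The N-terminal acetyltransferase genes, which modify the chain start, did not move together. Of 11, 1 and 4 were lower in MCF10A cells and none higher, while 3 were lower with each mimic in hTERT RPE-1 cells and 4 and 5 were higher, where 23.3% and 30.9% of all genes were higher. HYPK, a partner of the NatA acetyltransferase, had the highest mean among the genes of the whole list called with both mimics in hTERT RPE-1 cells, with log2 fold changes of 0.78 and 0.75 (limma adjusted p = 0.0213 and 0.019), on a low mean of 35.5 in siNT. The ribosome-associated complex, a chaperone pair of DNAJC2 and HSPA14, had 1 lower gene in MCF10A cells, after hsa-miR-708-5p. For hTERT RPE-1 cells it had 1 and 2 higher genes. Prefoldin, a chaperone that passes chains to TRiC, had 0 and 1 lower genes of 6 in MCF10A cells and 1 lower and 1 higher with each mimic in hTERT RPE-1 cells. Beside the counts of these groups, 12.0% and 17.3% of all genes were lower in MCF10A cells and 23.5% and 31.2% in hTERT RPE-1 cells. The shares of higher genes were 10.7%, 15.5%, 23.3% and 30.9%. No group was tested against these shares.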

How the data were processed

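PolyA+ RNA of MCF10A and hTERT RPE-1 cells was sequenced in 18 libraries. The authors trimmed adapters, aligned reads to hg38 with HISAT2 2.1.0 and estimated reads per gene with Partek Flow against RefSeq Transcripts 93. The deposited signal values are estimated reads divided by a size factor per library, scaled separately for each line, and are not whole counts. Further deposited columns hold gene coordinates and the authors' own ratios, p-values and FDR, of which only the coordinates were used.

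The study's count-based test was not run, because the scaled values did not return whole reads for nearly all genes. Genes that reached 10 in 3 or more libraries (14726 in MCF10A cells, 14527 in hTERT RPE-1 cells) were tested on log2(value + 1) with limma 3.58.1 (R 4.3.3), 3 groups per line, with Benjamini-Hochberg adjustment over all genes tested and a threshold of 0.05. Line differences combined the standard errors of both fits in a Welch t-test, with Benjamini-Hochberg adjustment over the genes tested in both lines. Ratios were compared by exact two-sided permutation tests. Library depth was estimated from the step between low values, and 81.9% to 86.5% of low values were whole reads within 0.05. The tests were tried on simulated data. The SD over genes of the log2 difference between replicates was 0.36 to 0.65.

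The members and lists were chosen with earlier results of these data known. Besides the members, the text names NACA2, RPS28, the list genes called in the same direction with both mimics in both lines or lowest and highest among those called with both, the 3 genes most correlated with a member, and the neighbours of NACAD in order of fold change. SRP54, SEC61A2, the aminopeptidase genes and PMEL and TYRP1 were named after their values were seen. Every same-number correlation of deviations was over 0.1 between each mimic and siNT in MCF10A cells (r 0.11 to 0.30) and between the mimics in hTERT RPE-1 cells (0.13 to 0.28), and at least 1 was lower in each other comparison. The study calls the replicates biological. The hsa-miR-28-5p sequence was read from the study's table of mimics, that of hsa-miR-708-5p matched RefSeq, and target windows were read from hg38. Alternatives changed the scaling, pseudocount, filter, samples in the fit, replicate block and single libraries.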

Additional observations from a re-analysis of the deposited data

Results flagged for a closer look

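The response of RPS28 differed between the lines by the test of the difference itself. The log2 fold change in hTERT RPE-1 cells minus that in MCF10A cells was -1.68 with hsa-miR-28-5p (SE 0.24, Welch t-test adjusted p = 6.54e-05) and -1.74 with hsa-miR-708-5p (SE 0.24, Welch t-test adjusted p = 1.12e-05). RPS28 was 3589 to 4062 in MCF10A siNT libraries and 500 to 697 with hsa-miR-28-5p. In hTERT RPE-1 cells it was 2892 to 3465 and 123 to 184. No response of NACA, BTF3 or BTF3L4 passed this test with the values as deposited, and with libraries rescaled to equal totals that of BTF3L4 to hsa-miR-708-5p did (0.365, Welch t-test adjusted p = 0.0282). Groups of 3 libraries were not searched for outlying samples.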

How the results depend on the processing

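The calls of BTF3 in all 4 comparisons with siNT and of BTF3L4 after hsa-miR-708-5p in the hTERT RPE-1 line held under every alternative. Rescaling to equal totals moved the all-gene median on the log2 scale by 0.12 and 0.14 in MCF10A cells and 0.09 and 0.32 in hTERT RPE-1 cells, and the share of calls that were higher rose from 47.1%, 47.3%, 49.9% and 49.7% to 66.1%, 67.6%, 59.4% and 71.8%. In MCF10A cells 1 member was called with each mimic under that setting and under quantile normalization. Under equal totals, 1 member, BTF3L4, was called between the siblings in hTERT RPE-1 cells (0.28, limma adjusted p = 0.0275) and between the lines after hsa-miR-708-5p (0.365, Welch t-test adjusted p = 0.0282). Also under equal totals, 3 chain factors were higher after hsa-miR-28-5p and 8 lower after hsa-miR-708-5p in MCF10A cells, and 7 were lower and 19 higher after hsa-miR-708-5p in the hTERT RPE-1 line. The cause was not tested.

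Leaving out 1 library at a time, members called ranged from 1 to 2 with each mimic in MCF10A cells and from 1 to 3 after hsa-miR-28-5p in hTERT RPE-1 cells. The NACA call was lost in MCF10A cells without siNT replicate 8 or 9 (both mimics), hsa-miR-28-5p replicate 7 or 8, or hsa-miR-708-5p replicate 8 for its own mimic. With hsa-miR-28-5p in hTERT RPE-1 cells it was lost without any siNT library, hsa-miR-28-5p replicate 2 or 3, or hsa-miR-708-5p replicate 3, and with only the 6 compared libraries (limma adjusted p = 0.0574). Lower chain factors ranged from 8 to 16 and 7 to 24 in MCF10A cells, and higher ones from 0 to 1 after hsa-miR-28-5p. In hTERT RPE-1 cells higher ones ranged from 3 to 6 after hsa-miR-28-5p and from 6 to 11 after hsa-miR-708-5p.

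The NACAD differences were -3.96 and -5.36 with a pseudocount of 10. Chosen after seeing the data, equal totals gave -7.09 and a pseudocount of 0.5 gave -7.61 after hsa-miR-708-5p.

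Signs turned for these values, none of which was called under the scaling as deposited. BTF3L4 after hsa-miR-28-5p in MCF10A cells was 0.073 under equal totals, 0.0438 under quantile normalization and between -0.0954 and 0.0314 with single libraries left out. NACA between the siblings was 0.0282 in hTERT RPE-1 cells under equal totals and -0.141 to 0.0901 in MCF10A cells with libraries left out, and BTF3L4 between them in hTERT RPE-1 cells was -0.0035 to 0.0953. Between the lines after hsa-miR-28-5p, BTF3 was -0.0198 under equal totals, -0.0689 under quantile normalization and -0.11 to 0.0903 with libraries left out, and NACA -0.0164 under quantile normalization and -0.0341 to 0.197 with libraries left out. With hsa-miR-708-5p, equal totals gave 0.0774 for NACA and 0.0693 for BTF3.

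With the replicate number as a block, 2 members stayed called with each mimic in MCF10A cells and 3 in hTERT RPE-1 cells, and no member call changed. Paired ratios within replicate numbers cannot go below p = 0.25 by exact sign flips. Depth limits NACAD after hsa-miR-708-5p, at 2 or 3 reads a library.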
